A study of Mus musculus with 2 samples.

Results

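The 6 Dlx genes encode homeodomain transcription factors related to Drosophila Distal-less, and in mouse they lie as 3 pairs on different chromosomes. The regions examined held each pair with 100 kb on either side: Dlx1 and Dlx2 on chromosome 2 (chr2:71266170-71484811), Dlx3 and Dlx4 on chromosome 11 (chr11:94881403-95107577), and Dlx5 and Dlx6 on chromosome 6 (chr6:6713334-6932085), all in mm9 with GENCODE M1 gene models. The 6 genes were chosen by name, out of 22367 protein-coding gene records on chromosomes 1 to 19, X and Y. CTCF binding was measured by ChIP-seq in R1/E mouse embryonic stem cells. The cells carried CTCF with a GFP-containing tag, expressed from an integrated bacterial artificial chromosome in 1 line of cells. 1 library came from a goat antibody against eGFP and the other from goat IgG, an isotype control that the labels also describe as input DNA, both from cells kept with LIF and crosslinked in formaldehyde. With 1 library per antibody there is no replicate check, and each interval below covers counting error between these 2 libraries only.

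Within each pair the genes face each other tail to tail and share enhancers in the intervening DNA. Dlx1, Dlx2, Dlx5 and Dlx6 act in GABAergic neurons of the forebrain, in the branchial arches and in limbs, and Dlx3 and Dlx4 in placenta, epidermis, teeth and bone. CTCF is a zinc finger protein that binds a long, directional motif and, with cohesin, holds the bases of chromatin loops, which form mostly between motifs that point toward each other. No RNA was measured here, so expression of the Dlx genes in these cells is not known from these files. The libraries held 8391191 CTCF and 7988889 IgG tags of 35 bp, none repeated at the same position and strand.

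The deposited CTCF peak list placed 27 of its 33788 summits in the 3 regions, 8 around Dlx1 and Dlx2, 16 around Dlx3 and Dlx4 and 3 around Dlx5 and Dlx6. A summit is the position of the most overlapping tags in a peak, and its height is that number of tags. Summits are numbered below from left to right along each chromosome. The sequences that follow, read from the mm9 reference, are those of the motif at the 3 highest summits of each region (Dlx1-Dlx2 summit 7 was as high as summit 2) and at those next to Dlx2 and Dlx3, so that the letters under each of these places can be compared. Capitals mark the 19 bases of the best match within 150 bp of the summit, scored with a matrix from the study's listed CTCF motifs, whose most frequent letters are TGGCCACCAGGGGGCACTA, and each is printed 5′ to 3′ on the strand of the motif.
Dlx1-Dlx2 summit 2 (in an intron of Hat1, chr2:71270989-71271037, minus strand): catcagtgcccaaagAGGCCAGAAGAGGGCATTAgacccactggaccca
Dlx1-Dlx2 summit 4 (in an intron of Metap1d, chr2:71316028-71316076, minus strand): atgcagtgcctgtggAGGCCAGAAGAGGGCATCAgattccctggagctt
Dlx1-Dlx2 summit 5 (nearest to Dlx2, chr2:71386064-71386112, minus strand): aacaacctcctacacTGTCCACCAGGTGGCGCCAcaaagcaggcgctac
Dlx1-Dlx2 summit 8 (the highest of its region, chr2:71437055-71437103, plus strand): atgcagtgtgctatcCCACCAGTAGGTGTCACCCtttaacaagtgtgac
Dlx3-Dlx4 summit 4 (in an intron of Itga3, chr11:94908444-94908492, plus strand): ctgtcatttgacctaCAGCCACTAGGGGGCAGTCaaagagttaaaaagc
Dlx3-Dlx4 summit 8 (the highest of its region, chr11:94968329-94968377, minus strand): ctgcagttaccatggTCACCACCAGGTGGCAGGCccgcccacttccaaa
Dlx3-Dlx4 summit 10 (upstream of Dlx3, chr11:94978432-94978480, plus strand): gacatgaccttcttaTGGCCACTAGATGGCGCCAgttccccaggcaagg
Dlx3-Dlx4 summit 11 (nearest to Dlx3, chr11:94979995-94980043, plus strand): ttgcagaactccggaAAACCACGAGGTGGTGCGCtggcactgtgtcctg
Dlx5-Dlx6 summit 1 (nearest to Dlx5, chr6:6835107-6835155, minus strand): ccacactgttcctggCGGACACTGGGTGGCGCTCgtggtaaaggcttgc
Dlx5-Dlx6 summit 2 (the highest of its region, chr6:6865322-6865370, minus strand): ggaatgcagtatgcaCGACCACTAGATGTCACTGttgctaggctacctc
Dlx5-Dlx6 summit 3 (nearest to Acn9, chr6:6892986-6893034, plus strand): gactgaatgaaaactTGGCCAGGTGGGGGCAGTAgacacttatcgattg

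These motifs differed from the most frequent letters at 4 to 9 of 19 bases and scored between 13.31 and 24.01 bits, where the threshold for p 1e-05 was 13.06 and the highest possible score 26.38. The lowest score stood at the summit nearest to Dlx3 and the highest at its neighbour, 2.93 kb from the Dlx3 start. The match nearest to Dlx2 scored 23.07 bits, although its summit was only 8 tags high. Conversely, the highest summit of the Dlx1-Dlx2 region, at 20 tags, lay on a match of 16.22 bits that differed from the most frequent letters at 9 bases.

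None of the 27 summits lay in a Dlx gene or between the genes of a pair. Among 1952 protein-coding genes of the same length range, 3346 to 5869 bp, 12.2% held a summit, and among 427 convergent gene pairs with gaps of 9236 to 15159 bp, 35.8% had a summit between the genes. 6 genes and 3 pairs are too few to set against these shares. One gene of each pair had a summit within about 3 kb upstream of its start. For Dlx2 the nearest summit was 1386 bp upstream, for Dlx3 1313 bp upstream and for Dlx5 3030 bp upstream. The partner genes lay farther away, with the nearest summit 14661 bp upstream of Dlx4, 20027 bp from Dlx1 and 21781 bp from Dlx6, for the last 2 beyond the partner gene. Thus 3 of the 6 starts had a summit within 5 kb, against 24.1% of all protein-coding starts.

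**Figure D1:**
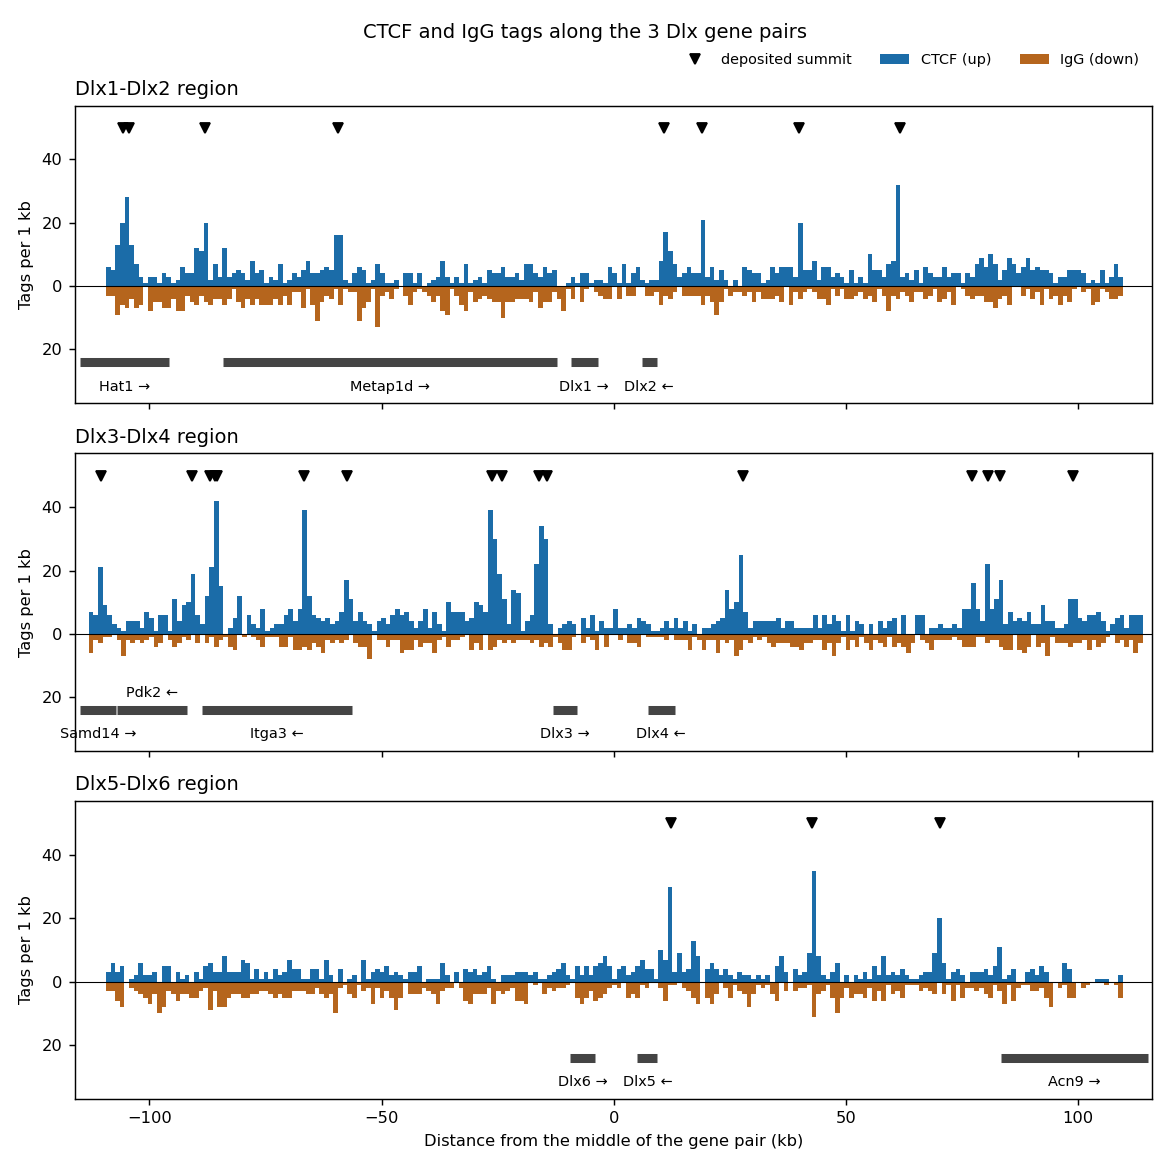
Tags per 1 kb in the CTCF library (upward) and the IgG library (downward) against the distance from the middle of each gene pair in kb. Triangles mark the deposited summits and grey bars the protein-coding genes. The 11 summits left of Dlx3 contrast with none in the 100 kb left of Dlx6, and no triangle falls on or between the genes of a pair.

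The distance between the summits that flank a pair differed between the 3 pairs. It was 42.148 kb over Dlx3 and Dlx4, 70 kb over Dlx1 and Dlx2 and 595.095 kb over Dlx5 and Dlx6, against a median of 25.632 kb for the 33736 gaps between neighbouring summits. Of all gaps, 63.1%, 75.3% and 98.3% respectively were shorter. The long gap came from the Dlx6 side, where the nearest summit to the left was 573.314 kb away, while on the Dlx5 side it was 3.03 kb from the gene. The stretch left of Dlx6 (chr6:6240021-6813333) held 1 protein-coding gene, Shfm1, named after a split hand and foot malformation. The CTCF library had 1474 tags there and the IgG library 2153, which after scaling for depth gave a ratio of 0.652 (95% interval 0.610 to 0.697). GC content was 40.4%, and the control had 3.76 tags per kb against 3.00 per kb over the genome. Of its 56 windows of 10 kb, 0 had more CTCF than IgG tags in an exact binomial test at an adjusted p of 0.05 and 6 had fewer, against 9.8% and 5.03% of all windows. The stretch was bounded by the absence of a summit, so few higher windows follow from its choice. Over the genome the ratio outside peaks was 0.898, and in windows without a summit at 40 to 42% GC it was 0.790. Gaps of at least this length numbered 576 and together made up 25.7% of the genome.

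The Dlx3-Dlx4 region had the most summits for its length, each counted separately although the closest stood only 545 bp apart. It held 7.07 summits per 100 kb, the Dlx1-Dlx2 region 3.66 and the Dlx5-Dlx6 region 1.37, against 1.27 over the genome. Set beside the same measure around every protein-coding gene, 97.2%, 73.8% and 32.3% of gene neighbourhoods respectively had fewer. GC content moved with this order, at 51.6%, 44.8% and 41.9%. Windows of 10 kb with GC within 1 percentage point of these values held 4.24, 2.14 and 1.11 summits per 100 kb. Each region thus lay above the windows of its own GC, a comparison chosen after the values were seen. Around Dlx5 and Dlx6 the margin was small and rested on 3 summits, and the differences were not tested.

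Around Dlx1 and Dlx2 the summits were mostly low and were equal in number on both sides. Heights ran from 7 to 20 tags with a median of 9.5, and 1 of the 8 was above the median of 13 over all summits. 4 stood left of Dlx1, of which 3 lay in introns, 2 of Hat1, a histone acetyltransferase, and 1 of Metap1d, a mitochondrial methionine aminopeptidase. The other 4 stood right of Dlx2, between genes, at 1.386, 9.72, 30.499 and 52.246 kb from its start. The highest, at chr2:71436588-71437335, held 28 CTCF tags and 1 IgG tag, a ratio of 26.7 whose counting interval began at 4.41. The peak nearest to Dlx2, at chr2:71385936-71386667, held 16 CTCF and 2 IgG tags. In all, the 8 peaks held 168 CTCF and 26 IgG tags.

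Around Dlx3 and Dlx4, 11 of the 16 summits lay left of Dlx3 and 5 right of Dlx4. Heights ran from 6 to 29 tags with a median of 10.5, and 6 were above the median of all summits. The highest, 13.105 kb upstream of Dlx3 at chr11:94967887-94968961, held 52 CTCF and 3 IgG tags, and 97.7% of all summits were lower. Next came a summit of 21 tags in an intron of Itga3, the gene of an integrin alpha subunit (chr11:94907992-94908931), with 42 CTCF tags and 1 IgG tag. A summit of 19 tags stood 2.93 kb upstream of Dlx3 (chr11:94977841-94979093, 50 CTCF and 6 IgG tags). It formed a close couple with the summit of 16 tags at 1.313 kb (chr11:94979770-94980438, 29 and 3 tags). On the Dlx4 side the nearest summit, 17 tags high, was 14.661 kb upstream of the start (chr11:95021820-95022640, 25 CTCF and 3 IgG tags). The left flank therefore carried the tallest sites as well as the most.

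Around Dlx5 and Dlx6 all 3 summits lay on the Dlx5 side, at 3.03, 33.38 and 60.866 kb from its start. Their heights were 15, 17 and 8 tags in that order. The first peak (chr6:6834694-6835580) held 25 CTCF tags and 1 IgG tag, the next (chr6:6864955-6865828) 28 and 4, and the last (chr6:6892725-6893288), 13053 bp upstream of Acn9, a gene of succinate dehydrogenase assembly, 15 and 0. With its IgG count set to a floor of 3 tags, the last had a ratio of 4.76, and its counting interval began at 3.41. So the region had the fewest summits, but 2 of the 3 were higher than the median of all summits.

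**Figure D2:**
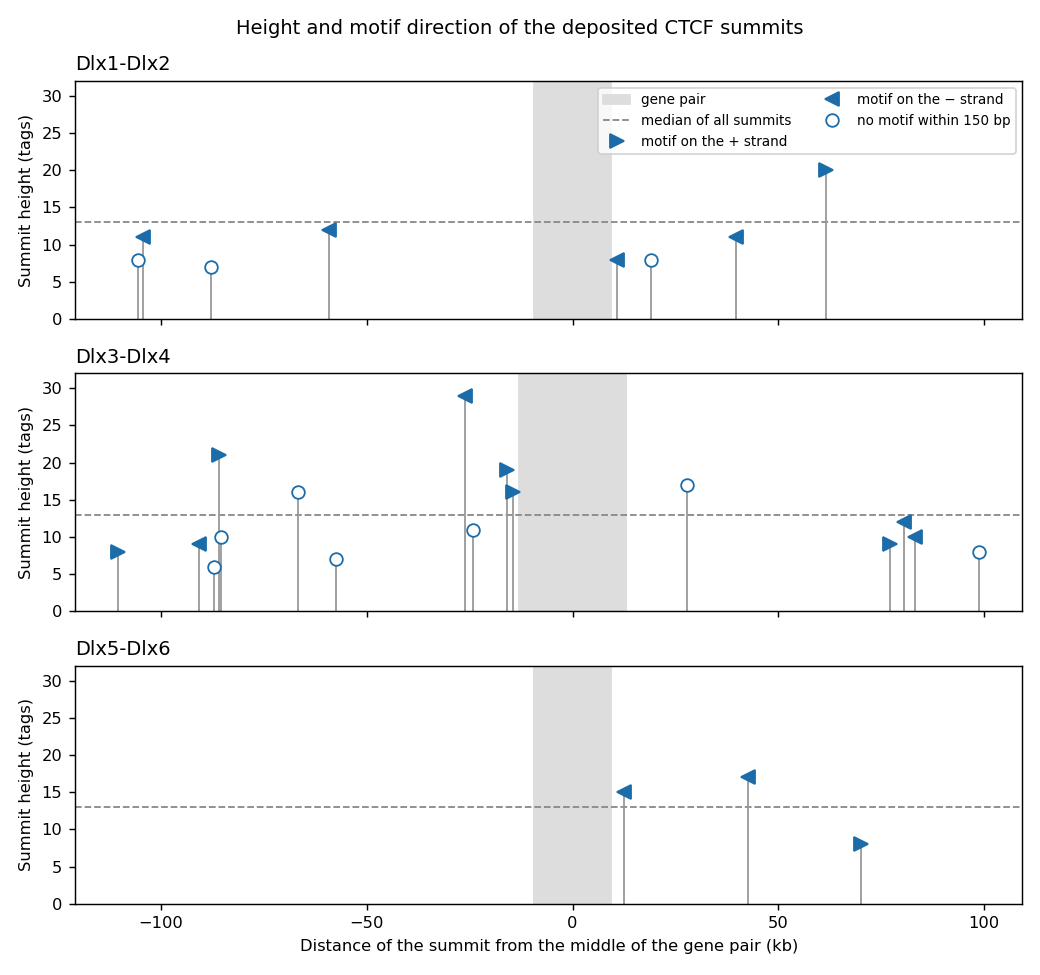
Height in tags of each deposited summit against its distance from the middle of the gene pair in kb. Arrowheads point along the strand of the best motif within 150 bp, open circles have none at p 1e-05, the grey band is the gene pair and the dashed line the median of all summits, 13 tags. The highest summit, 29 tags, stands left of Dlx3, and the summits nearest to Dlx2, Dlx3 and Dlx5 carry motifs that point toward the pair.

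Summits without a motif were present in 2 of the 3 regions. A match at p 1e-05 lay within 150 bp of 5 of 8 summits around Dlx1 and Dlx2 (62.5%, 95% Wilson interval 30.6 to 86.3), 9 of 16 around Dlx3 and Dlx4 (56.2%, 33.2 to 76.9) and 3 of 3 around Dlx5 and Dlx6 (43.9 to 100%). Over all summits the share was 73.6%, inside each of these intervals. With a match anywhere in the peak, a choice made after the values were seen, the counts were 8 of 8, 11 of 16 and 3 of 3, against 81.2% of all peaks. In the Dlx1-Dlx2 region the 3 additional peaks thus held their match more than 150 bp from the summit, among them a match of 24.33 bits in the peak 9.72 kb from Dlx2.

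The summits closest to the genes pointed inward. The motif of the summit nearest to Dlx2 lay on the minus strand, that nearest to Dlx5 on the minus strand, and both summits within 3 kb of Dlx3 had it on the plus strand, so each read toward its pair. In all, 10 of the 17 motifs pointed toward the pair and 7 away from it, with 2 and 3 around Dlx1 and Dlx2, 6 and 3 around Dlx3 and Dlx4, and 2 and 1 around Dlx5 and Dlx6. The 2 regions with summits on both sides differed at the flanking positions. Left of Dlx1 both motifs within 150 bp of a summit were on the minus strand and pointed away. The motifs nearest to the pair on its 2 sides, 49.973 kb from Dlx1 and 1.386 kb from Dlx2, thus pointed the same way along the chromosome. Matches farther from the summit in peaks of the Dlx1-Dlx2 region, which are not counted here, pointed toward the pair. They were those of 20.61 and 15.15 bits in the other peaks left of Dlx1 and that of 24.33 bits right of Dlx2. In peaks left of Dlx3, by contrast, such matches of 18.77, 18.66 and 19.26 bits pointed away, and that of 16.26 bits pointed toward the pair. Left of Dlx3 the nearest motifs pointed inward, while on the Dlx4 side the nearest summit had no match, the next pointed away, and the following 2, 67.461 and 70.151 kb from Dlx4, pointed inward. Left of Dlx6 the first motif was that of the summit 573.314 kb away, on the plus strand, and it pointed toward the pair. These directions are counts of 17 motifs and carry no test.

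A set of letters recurred among the motif matches. The 11 bases CCAGAAGAGGG were the most frequent stretch of that length among all matches at p 1e-05 in the 3 regions and were searched on both strands, as part of the 19-base motif. They are known from the B2 family of short interspersed repeats, which spread CTCF motifs over the mouse genome. No repeat annotation was used here. They stood in 4 of the 17 summit motifs (23.5%), at Dlx1-Dlx2 summits 2, 4 and 7 and Dlx3-Dlx4 summit 1, and in 18.8% of the summit motifs of the whole genome. Of all summits, 13.9% had the 11 letters within 150 bp. The share in the regions was thus close to that of the genome, and the difference was not tested. No summit motif of the Dlx5-Dlx6 region held them, but its 3 motifs are too few to set against these shares.

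Identical letters were called as a peak at one place and not at others. The 19 bases AGGCCAGAAGAGGGCATCA under Dlx1-Dlx2 summit 4 had 14 CTCF and 2 IgG tags within 150 bp. The same 19 bases occurred at 2 places right of Dlx5 outside any peak, at chr6:6840243-6840261 with 9 CTCF and 2 IgG tags and at chr6:6868110-6868128 with no tag of either library. Over the genome this sequence had 1401 exact copies, of which 450 (32.1%) lay in a peak, with a median of 5 CTCF tags and a mean of 7.53 CTCF and 0.852 IgG tags. By contrast, 12 of the 13 summit motifs without the 11 letters occurred once in the genome. The exception was TGTCCACCAGGTGGCGCCA, next to Dlx2, with 3 copies, all in peaks. Whether tags with several equally good places in the genome were kept is not given in the sources used here, so counts at repeated letters may be incomplete.

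**Figure D3:**
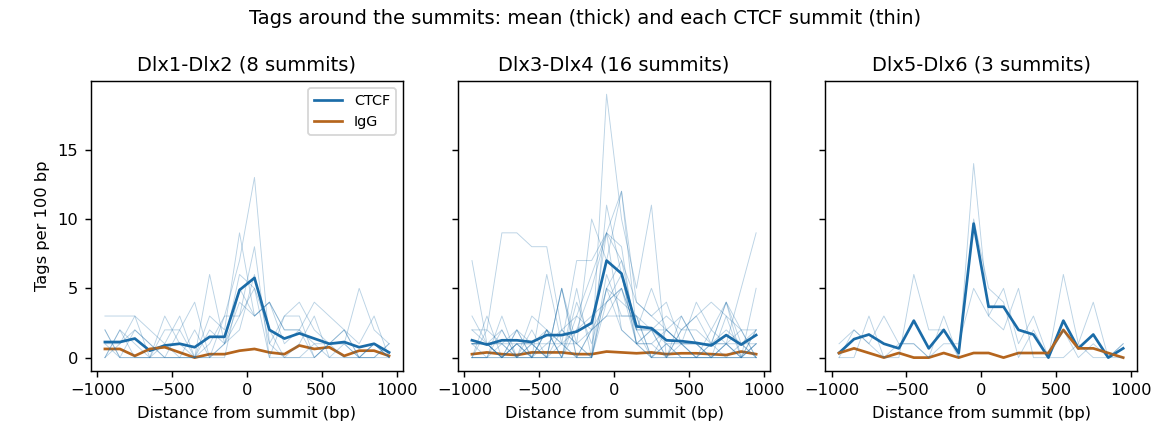
Mean tags per 100 bp within 1 kb of the summits of each region (thick lines, CTCF and IgG) and each summit's CTCF tags (thin lines), against the distance from the summit in bp. The CTCF lines rise at the summit in all 3 regions, where the peaks were called, while the IgG means stay at or below 2 tags.

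Tags at the gene starts themselves were few. Within 1 kb of the start, Dlx1 had 4 CTCF and 5 IgG tags, Dlx2 had 9 and 8, and Dlx3 had 3 and 5. These 3 starts were at the level of the control. Dlx4 had 8 and 2 tags, Dlx5 had 9 and 1, and Dlx6 had 3 and 1. Of the 5 starts with at least 5 tags in total, 0 passed an exact binomial test with Benjamini-Hochberg adjustment over all 20206 starts tested, where 11.2% were called higher in the CTCF library. At an unadjusted p below 0.05 there was 1, against 4124 of all 20206 starts, a share like that of 1 in 5. It was Dlx5, with a ratio of 8.57 (1.19 to 376) and an adjusted p of 0.134 in the same exact test. At this depth a difference in 1 kb could be missed. Within 5 kb, where the upstream summits enter, 3 of 6 starts passed, against 27.7% of all. These were Dlx2 with 60 and 24 tags (adjusted exact p = 0.00112), Dlx3 with 107 and 31 (8.32e-09) and Dlx5 with 79 and 19 (5.69e-08). Dlx1 had 23 and 30 tags, Dlx4 25 and 17 and Dlx6 32 and 30, none of which passed. The peaks were called on the same tags, so these calls and the upstream summits are not separate evidence.

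**Figure D4:**
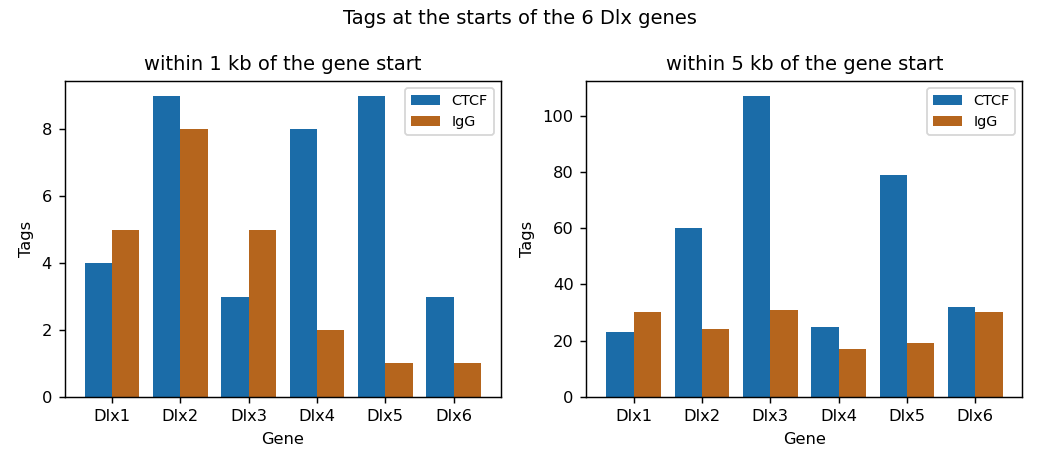
Tags within 1 kb (left) and 5 kb (right) of the start of each Dlx gene in the CTCF and IgG libraries, as bars from 0 with no replicate. In 1 kb no gene exceeds 9 tags, and in 5 kb Dlx3, Dlx5 and Dlx2 stand out with 107, 79 and 60 CTCF tags.

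Inside the genes, the counts of tags were small as well. From start to end, Dlx1 held 15 CTCF and 12 IgG tags, Dlx2 4 and 6, Dlx3 12 and 15, Dlx4 13 and 5, Dlx5 18 and 6, and Dlx6 16 and 21. The depth-scaled ratio ran from 0.635 in Dlx2 to 2.86 in Dlx5, and the 95% interval left out 1 only for Dlx5 (1.09 to 8.79). Per length the CTCF library had between 1.20 tags per kb, in Dlx2, and 4.20, in Dlx5, against 3.15 over the genome.

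Over the whole regions the tag ratios followed the peaks. The Dlx1-Dlx2 region held 1038 CTCF and 831 IgG tags, a ratio of 1.19 (1.08 to 1.30). The Dlx3-Dlx4 region held 1369 and 624, a ratio of 2.09 (1.90 to 2.30), and the Dlx5-Dlx6 region 727 and 756, a ratio of 0.916 (0.826 to 1.02). The 3 regions differed by more than counting error. The ratio around Dlx3 and Dlx4 was 2.28 times that around Dlx5 and Dlx6 (1.98 to 2.63) and the ratio around Dlx1 and Dlx2 was 0.569 times that around Dlx3 and Dlx4 (0.498 to 0.651) and 1.30 times that around Dlx5 and Dlx6 (1.13 to 1.49). With 50000 bp on each side the regions of Dlx1 and Dlx2 and of Dlx5 and Dlx6 had overlapping intervals, at 1.08 (0.946 to 1.23) around Dlx1 and Dlx2 and 1.04 (0.906 to 1.19) around Dlx5 and Dlx6. Peaks took 16.2%, 30.8% and 9.35% of the CTCF tags in the 3 regions, against 11.5% over the genome.

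With all peaks left out the order remained, and it moved with GC content. The ratios outside peaks were 1.03 (0.934 to 1.13) around Dlx1 and Dlx2, 1.57 (1.41 to 1.74) around Dlx3 and Dlx4 and 0.835 (0.751 to 0.929) around Dlx5 and Dlx6, where 0.898 was the value over the genome. Windows without a summit and with GC within 1 percentage point had ratios of 0.926, 1.23 and 0.820, so windows of matched GC stood in the same order, and the part of GC in the result was not tested. Among single flanks, that left of Dlx3 stood at 1.95 (1.67 to 2.29) against 1.20 at its GC, that right of Dlx2 at 1.30 (1.12 to 1.51) against 0.938, and that right of Dlx5 at 0.991 (0.842 to 1.17) against 0.793. The flank left of Dlx6, with no summit, stood lower, at 0.662 (0.566 to 0.773) against 0.807. In the remaining 2 flanks the GC value lay inside the interval, with 0.813 (0.707 to 0.935) against 0.855 left of Dlx1 and 1.27 (1.08 to 1.48) against 1.223 right of Dlx4. The pairs themselves had ratios of 1.27, 1.45 and 1.25, each with its GC value inside the interval. Single windows at matched GC spread widely, for the left flank of Dlx6 from 0.461 at the 5th to 1.43 at the 95th percentile. The GC values came from whole windows without a summit, whereas flanks with summits lost only the peaks themselves. Tags just beside peaks could thus raise such flanks above their GC value. With 500 bp beside peaks also left out, the 3 whole regions stood at 1.012, 1.499 and 0.805, in the same order. Single flanks were not recomputed in this way.

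**Figure D5:**
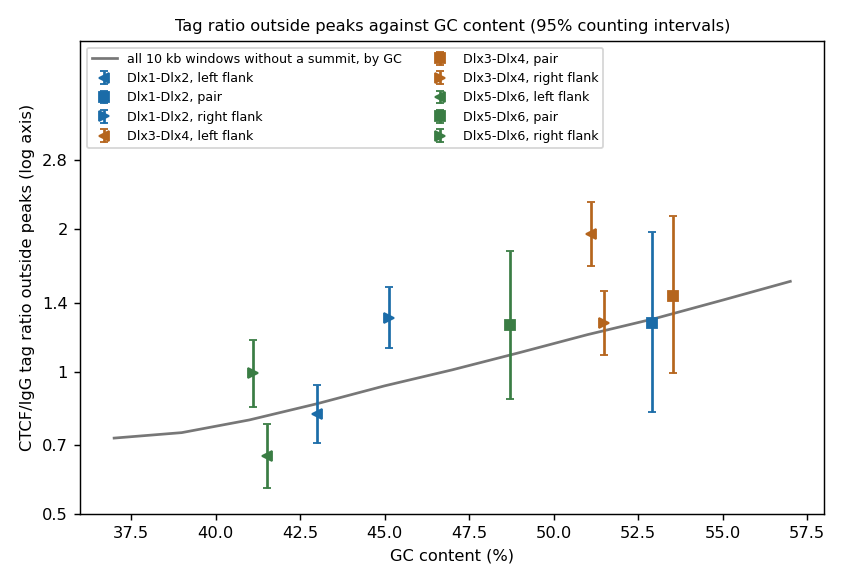
CTCF to IgG tag ratio outside peaks, scaled by depth and on a log axis, against GC content in percent for the flanks and pairs of the 3 regions, with 95% counting intervals. The grey line gives all 10 kb windows without a summit in GC bins of 2 percentage points. It rises with GC, the flank left of Dlx3 (1.95) lies above it and the flank left of Dlx6 (0.662) below.

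In 10 kb windows, 21 of which lay wholly in each region, 4 around Dlx1 and Dlx2, 8 around Dlx3 and Dlx4 and 2 around Dlx5 and Dlx6 had more CTCF tags in the exact binomial test adjusted over all 247638 windows tested. Of all windows 9.8% were called so, and of windows with GC within 1 point of the region 15.2%, 35.4% and 7.20%. The count around Dlx3 and Dlx4 was thus close to the share at its GC. The window with the lowest p, left of Dlx3 over Pdk2 and Itga3 (chr11:94900001-94910000, 4 summits), held 142 CTCF and 20 IgG tags (adjusted exact p = 1.23e-19). The window over Dlx2 and its upstream summit (chr2:71380001-71390000) held 60 and 24 tags, and that over the Dlx5 start (chr6:6830001-6840000) 76 and 19. 2 of the 14 called windows held no summit, 1 right of Dlx2 with 62 and 28 tags and 1 over Itga3 with 42 and 18. Fewer CTCF tags were called in 2 windows, both in the Dlx5-Dlx6 region, with 29 and 55 tags left of Dlx6 and 22 and 46 right of Dlx5, against 5.03% of all windows.

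Tags were similarly few at the starts of other genes known from the development of these tissues. The list held 24 genes of forebrain, jaw, limb, bone and skin development, such as Gsx2, Lhx6, Msx1 and Runx2. Its median was 6 CTCF and 3 IgG tags within 1 kb, that of the Dlx genes 6 and 3.5 and that of all protein-coding starts 7 and 5. Of 21 tested, 1 passed in the exact test, against 11.2% of all starts. It was Tfap2a (Tcfap2a in the annotation), a factor of neural crest and epidermis, with 15 and 2 tags and an adjusted p of 0.0257. Gad1, which makes GABA, had the most CTCF tags, 21 against 6 (adjusted exact p = 0.0544), and Sp7, a factor of bone, had 12 and 12. Among those with the fewest, Msx1, a homeobox gene of jaw and limb, had 1 tag in each library and Lhx8 had 2 and 3. A summit lay within 5 kb of 3 of the 24, Nkx2-1, Isl1 and Barx1, against 24.1% of all starts. Among the 6 protein-coding neighbours in the regions, 2 passed, against the same 11.2%. These were Pdk2, a pyruvate dehydrogenase kinase, with 23 and 3 tags (adjusted exact p = 0.00176) and Itga3 with 18 and 2 (0.00608), both left of Dlx3. Hat1, Metap1d, Samd14 and Acn9 had between 4 and 14 CTCF tags and did not pass.

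The layout of CTCF tags along the gene differed from one Dlx gene to the next. The layout was taken over 40 windows of 5 kb from 100 kb before to 100 kb after the start, in the direction of the gene. The log2 CTCF to IgG ratios of the 6 genes correlated between -0.268 (Dlx2 and Dlx4) and 0.363 (Dlx1 and Dlx6). Genes of a pair share most of this DNA but lie on opposite strands, so it entered in reversed order. Their correlations, -0.023 for Dlx1 and Dlx2, 0.039 for Dlx3 and Dlx4 and 0.112 for Dlx5 and Dlx6, therefore do not compare like positions. The layout most like that of Dlx5 was that of Pcp4 (Pearson r 0.741), followed by Zfp503 (0.629). For the others the first named were Cdh3 for Dlx6 (0.660), Pole4 for Dlx2 (0.649), A630001G21Rik for Dlx3 (0.628), Lrrc52 for Dlx1 (0.621) and Ccr2 for Dlx4 (0.605). The second were 1600029O15Rik for Dlx6 (0.651), D630045J12Rik for Dlx2 (0.598), Sos2 for Dlx3 (0.628), Cxcr5 for Dlx1 (0.610) and Rps3 for Dlx4 (0.563). These are the highest of 22355 to 22364 comparisons per gene of sparse counts from the same 2 libraries and are given as a description.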

How the data were processed

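ChIP-seq was performed in R1/E cells with 1% formaldehyde, fragments of about 500 bp, 5 ug of antibody and 20 ng of DNA per Genome Analyzer II library. The authors deposited mapped tags for both libraries on mm9. Counts of tags were made from these positions as the authors deposited them, 1 per line, and the read aligner is not given in the sources used here. The authors deposited peaks with the MACS 1.4 score, −10 times the log10 of its p, and summits with their height, a signal in tags. The authors' peaks were called on CTCF over IgG, so ratios inside peaks follow from the calls.

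The 6 genes, the gene list and the comparisons were chosen with earlier results of these data known. Tags were moved 93 bp toward the fragment centre, from a fragment length of 186 bp estimated at the top peaks. No tag or peak lay past a chromosome end of the reference (NCBIM37). Ratios were scaled by library totals and carry exact 95% intervals. Shares carry Wilson intervals. Windows of 10 kb with at least 10 tags and gene starts with at least 5 were tested by a two-sided exact binomial test, adjusted by Benjamini-Hochberg over all of them, at 0.05. It compares 2 libraries, not conditions. The motif matrix came from 192 CTCF sequences in the study's motif sheet, turned to 1 strand, with a threshold of p 1e-05 within 150 bp of the summit. Named were the 6 genes, the coding genes in the regions, the listed genes with the 3 highest and 3 lowest CTCF tags at the start (1 of these is not reported here), the 3 highest summits of each region, the first summit outside it, and the 2 genes most alike in layout. Others, such as the repeated motif letters, were chosen after their values were seen. The tests and motif search were tested on simulated data. Python 3.11.15, numpy 2.4.6 and scipy 1.17.1 were used. Alternatives varied the flank, score, scaling, tag position, window, tag minimum and motif settings.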

Additional observations from a re-analysis of the deposited data

How the results depend on the processing

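Of 57 values recomputed for 19 results under the alternatives, 34 stayed within 1.5 times the count or within the counting interval, 23 moved and 0 reversed. The number of summits depended on the flank and on the score. With 50000 bp on each side there were 4 around Dlx1 and Dlx2 and 6 around Dlx3 and Dlx4, with 200000 bp there were 28 around Dlx3 and Dlx4, and with a score of at least 100 there were 2 and 7. With 50000 bp the tag ratio was 1.08 around Dlx1 and Dlx2 and 1.04 around Dlx5 and Dlx6, with intervals that overlapped. Scaled by tags outside peaks, the ratios of the Dlx1-Dlx2, Dlx3-Dlx4 and Dlx5-Dlx6 regions were 1.32, 2.33 and 1.02, and outside peaks 1.15, 1.75 and 0.931, in the same order as before. The whole-region ratio around Dlx5 and Dlx6, whose interval held 1 to begin with, thus passed from below to above 1 under both settings. Outside peaks, the scaled interval around Dlx1 and Dlx2 (1.04 to 1.26) left out 1, which the main interval held. The scaled interval around Dlx5 and Dlx6 (0.837 to 1.03) held 1, which the main interval left out. That scaling called 4 windows around Dlx5 and Dlx6, and over the genome 29166 windows higher and 5142 lower, against 24272 and 12452 by library totals. Windows of 5 kb gave 7, 10 and 4 higher calls in the 3 regions, against 29524 higher and 6725 lower of 470413 over the genome. Motifs within 50 bp stood at 2, 4 and 1 summits, motifs at peaks with a score of at least 100 at 1 and 5 summits of the first 2 regions, and a motif anywhere in the peak at 8 around Dlx1 and Dlx2. Within 5 kb, 3 Dlx starts were called, and over the genome 6010 starts, against 2261 within 1 kb and 1256 within 500 bp. No paired analysis was possible because each antibody has a single library, and for the same reason no replicate could be left out. The depth limits calls at the Dlx starts, none of which had more than 9 CTCF tags within 1 kb.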

Other observations

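Most motif matches in the 3 regions lay outside the peaks. At p 1e-05 there were 33 matches in the Dlx1-Dlx2 region, 65 in the Dlx3-Dlx4 region and 17 in the Dlx5-Dlx6 region, of which 25, 52 and 14 were outside any peak. Within the pairs there were 2, 4 and 1, among them 1 in an exon of Dlx1 with no tag of either library within 150 bp and 1 in an exon of Dlx4 with 1 tag of each. Outside peaks, the 31 matches with the letters CCAGAAGAGGG held 52 CTCF and 12 IgG tags, a ratio of 4.13 (95% interval 2.17 to 8.49), and the 60 without them 95 and 44, a ratio of 2.06 (1.42 to 3.01). Where matches lay close together, as at chr11:94925160-94925178 and chr11:94925210-94925228, a tag could count at both. The intervals do not allow for this. By region, the ratio without the letters was 2.56 (1.61 to 4.19) around Dlx3 and Dlx4, where the ratio outside peaks was 1.57, 1.81 (0.800 to 4.36) around Dlx1 and Dlx2 and 0.714 (0.204 to 2.35) around Dlx5 and Dlx6, so the last 2 could not be told from the 0.898 outside peaks over the genome. With the letters it was 3.81 (1.23 to 15.7) around Dlx1 and Dlx2, 3.81 (1.39 to 12.98) around Dlx3 and Dlx4 and 5.08 (1.45 to 27.2) around Dlx5 and Dlx6. The interval around Dlx3 and Dlx4 held the 1.57 outside peaks of its region. Those around Dlx1 and Dlx2 and around Dlx5 and Dlx6 lay above the values of their own regions, 1.03 and 0.835. Of all matches outside peaks, with or without the letters, those with most CTCF tags lay right of Dlx5 and left of Dlx3. The match right of Dlx5 held the letters and had 9 CTCF and 2 IgG tags. That left of Dlx3 did not hold them and had 7 CTCF and 0 IgG tags.

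Of the first summits beyond the regions, those around Dlx3 to Dlx6 were mostly higher than the median of 11 tags within. Left of the Dlx3-Dlx4 region a summit of 25 tags lay in an intron of Ppp1r9b, and left of the Dlx5-Dlx6 region the summit at the far end of the long gap was 24 tags high, with 36 CTCF and 2 IgG tags in its peak. On the other sides, summits of 10 tags near Tac4 and 18 tags beyond the end of Acn9, 164332 bp past its start, followed. Around Dlx1 and Dlx2 the first outside summits were 7 tags high, 2353 bp from Hat1, and 13 tags high, 189.525 kb from Dlx2.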
